A study of Mus musculus with 4 samples.

Results

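Chromatin accessibility was examined at 9 genes that make cytosolic acetyl-CoA, feed it or spend it. These genes are Slc25a1, Acly, Acss1, Acss2, Cs, Dlat, Pdhb, Acaca and Slc13a5. A peak was counted as belonging to a gene when it overlapped the gene or the 5 kb upstream of its start in the GENCODE vM21 annotation (GRCm38, the assembly that mm10 names). This rule used no measured value and found 32 of the 117282 peaks in the table, with at least 1 peak at each of the 9 genes. The samples were bone mesenchymal stem cells (MSCs) of old mice (18 to 22 months, 2 samples) and of young mice (3 to 5 months, 2 samples), and all 4 cultures were kept at 2% O2 without any other treatment named in the labels. The study's methods describe wild-type C57BL/6N mice and a sort for CD45-/Ter-119-/Sca-1+/CD140a+ cells for its young animals, and the labels do not give strain, sex or the number of animals behind each culture. ATAC-seq uses a transposase that cuts open DNA, so the signal of a peak reports how accessible the chromatin is there, not how strongly a gene is transcribed.

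Acetyl-CoA is made inside mitochondria and cannot cross their inner membrane. Pyruvate dehydrogenase forms it from pyruvate, citrate synthase joins it to oxaloacetate, and the citrate carrier moves the resulting citrate into the cytosol, where ATP-citrate lyase splits it again into acetyl-CoA for lipid synthesis and for the acetylation of histones. Acetyl-CoA synthetases offer a second route from acetate, and plasma membrane citrate transport a further source of citrate. The study is concerned with the route of acetyl-CoA from mitochondrion to nucleus in MSCs, and the comparison of old with young cells asks whether chromatin differs with age.

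Promoters at which the results below turn are shown first, as the bases just before an annotated start, on the strand of the gene and cut where another annotated exon begins. The sequences come from RefSeq promoter windows on GRCm38.p6, which held all 9 genes, and for the inner Acaca start from the RefSeq genome of the same assembly. Capitals mark the searched motifs on either strand, which were the CCAAT box (CCAAT), the GC box (GGGCGG), the E-box (CACGTG), an ETS motif (CCGGAAG), the core of the hypoxia response element (ACGTG, which every E-box contains), the AP-1 motif (TGANTCA), part of the sterol response element (TCACNCCAC) and the cyclic AMP response element (TGACGTCA).
Slc25a1 (citrate carrier, mm10 chr16:17928220-17928469, minus strand): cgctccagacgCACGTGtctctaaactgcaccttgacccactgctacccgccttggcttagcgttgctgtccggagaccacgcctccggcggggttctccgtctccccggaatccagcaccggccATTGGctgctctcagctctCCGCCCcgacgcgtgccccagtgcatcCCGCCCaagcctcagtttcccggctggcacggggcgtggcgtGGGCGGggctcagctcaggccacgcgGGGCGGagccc
Acly (ATP-citrate lyase, mm10 chr11:100528001-100528250, minus strand): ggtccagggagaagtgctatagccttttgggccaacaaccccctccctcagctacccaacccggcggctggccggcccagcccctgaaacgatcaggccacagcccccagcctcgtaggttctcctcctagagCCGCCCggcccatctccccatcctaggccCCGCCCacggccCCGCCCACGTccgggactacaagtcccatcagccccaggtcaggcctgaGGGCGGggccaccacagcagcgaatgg
Acss2 (cytosolic and nuclear acetyl-CoA synthetase, mm10 chr2:155517793-155517947, plus strand): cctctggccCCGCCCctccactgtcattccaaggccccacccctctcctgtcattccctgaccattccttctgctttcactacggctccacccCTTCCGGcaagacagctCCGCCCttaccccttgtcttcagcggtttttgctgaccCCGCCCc
Pdhb (pyruvate dehydrogenase E1 beta, mm10 chr14:8173026-8173242, minus strand): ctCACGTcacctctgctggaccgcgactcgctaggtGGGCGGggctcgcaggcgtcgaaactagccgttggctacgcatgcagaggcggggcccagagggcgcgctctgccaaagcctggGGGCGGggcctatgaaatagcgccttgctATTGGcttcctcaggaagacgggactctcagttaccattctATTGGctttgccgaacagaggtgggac
Acaca, inner start within its strongest peak (acetyl-CoA carboxylase, mm10 chr11:84179581-84179830, plus strand): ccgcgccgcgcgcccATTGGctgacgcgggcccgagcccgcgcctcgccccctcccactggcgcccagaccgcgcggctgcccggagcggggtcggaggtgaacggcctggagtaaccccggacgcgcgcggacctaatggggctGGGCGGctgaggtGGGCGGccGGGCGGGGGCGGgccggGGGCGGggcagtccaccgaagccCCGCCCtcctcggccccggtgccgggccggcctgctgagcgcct
Acaca, start beside the peak with the lowest p (mm10 chr11:84195188-84195437, plus strand): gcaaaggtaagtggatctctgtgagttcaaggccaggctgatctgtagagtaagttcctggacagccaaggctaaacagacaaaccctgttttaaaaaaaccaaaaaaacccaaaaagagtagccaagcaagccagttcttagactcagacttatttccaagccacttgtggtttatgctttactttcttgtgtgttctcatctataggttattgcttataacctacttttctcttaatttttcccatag

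The promoters differed in make-up. In windows of 250 bases before the start, the Slc25a1 window had a GC content of 70.0% with 4 GC boxes, 1 CCAAT box and 1 E-box, and the Acly window had 68.8% with 4 GC boxes and 1 ACGTG. The Pdhb window held 3 CCAAT boxes, 2 GC boxes and 1 ACGTG at 61.6% GC, and the Acss2 window held 4 GC boxes, 1 CCAAT box and the ETS motif at 64.0% GC. At both, 1 CCAAT box, and at Acss2 also 1 GC box, lies outside the printed stretch, within an annotated exon. Among the 21255 windows before starts of protein-coding genes, 42.6% held a GC box, 35.4% a CCAAT box, 6.63% an E-box, 17.8% ACGTG and 8.99% the ETS motif, and the median GC content was 55.6%. Every window of the 9 genes overlapped a peak. Among the 13889 windows that did so, 59.1% held a GC box, 8.27% an E-box, 21.4% ACGTG and 12.7% the ETS motif. Their median GC content was 60.4%, and a CCAAT box was no more common in them than in all windows. The inner Acaca start was richer in GC than the windows of Slc25a1, Acly, Pdhb and Acss2, at 81.6% GC with 6 GC boxes and 1 CCAAT box. By contrast, the window of the Acaca start at 84195438 had 39.2% GC, not a single CpG and none of these letters. The AP-1 and cyclic AMP motifs were in no window of the 9 genes, beside 6.14% and 1.92% of all windows (4.80% and 2.59% of those in a peak). TCACNCCAC was in 1, at the Acaca start 43450 bp into the gene, beside 1.01% (1.04%). A match to such letters is a description of the sequence and does not show that a factor binds.

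Each deposited value was a whole number of counts times a constant of its library (100% of values), which gives library totals between 28259470 and 32559794 counts if the values were scaled to 10000000 counts (a scale inferred from the values, at which all 4 totals come out whole within 1e-06), and peak length had not been divided out. Peak values were therefore divided by RLE factors (between 0.813 and 1.15), which set the typical peak to no change, and are called RLE-scaled values below. Levels are compared between genes only after division by the width of the peak in kb. Replicates of the old group stood further apart than those of the young group, with r = 0.955 and r = 0.971 across all peaks (peaks are not independent replicates). Against young replicates 1 and 2, r was 0.950 and 0.946 for old replicate 1 and 0.935 and 0.924 for old replicate 2. Peaks within 1 kb of a coding start were present at 10 of 10 mesenchymal stromal marker genes, whose summed RLE-scaled value was between 3289 and 3995 in old and between 3168 and 3296 in young MSCs. Among the blood markers, Ptprc, Itgam, Cd3e and Gata1 had no such peak, and the list summed to between 62.8 and 63.4 in old and between 48.4 and 72.0 in young MSCs. The macrophage list (2 of 3 markers with a peak) summed to between 404 and 597 in old and between 488 and 547 in young MSCs, with no peak at Adgre1, and the endothelial list (3 of 4, none at Cdh5) to between 76.6 and 78.4 and between 85.2 and 87.9. The part of these lists in the results below was not tested.

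All 9 genes had a peak over their annotated start, and together these start peaks and 23 other peaks made up the 32. Counted per kb, the start peak of Pdhb was the most accessible of the 9, with an RLE-scaled value of 87.3 per kb over all 4 samples, above 97.9% of the 16205 promoter peaks in the table. Acly followed with 53.1 per kb, Acss2 with 40.6, Dlat with 38.4, Slc25a1 with 35.9, Acaca with 33.7, Cs with 28.7, Acss1 with 26.4 and Slc13a5 with 20.2. The lowest sample of Pdhb (73.4 per kb) was above the highest of Acly (64.5 per kb), and the lowest of Acly (45.5 per kb) above the highest of Acss2 (43.5 per kb). From Acss2 to Acaca the ranges over samples overlapped between neighbours, and Cs (28.4 to 28.9 per kb) overlapped with Acaca (27.8 to 37.5 per kb) and with Acss1 (23.6 to 30.4 per kb). Slc13a5, the plasma membrane citrate transporter best known from liver, was the lowest, with 17.6 to 22.9 per kb, below every sample of Acss1 and above 35.7% of promoter peaks. The median promoter peak had 27.1 per kb.

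**Figure D1:**
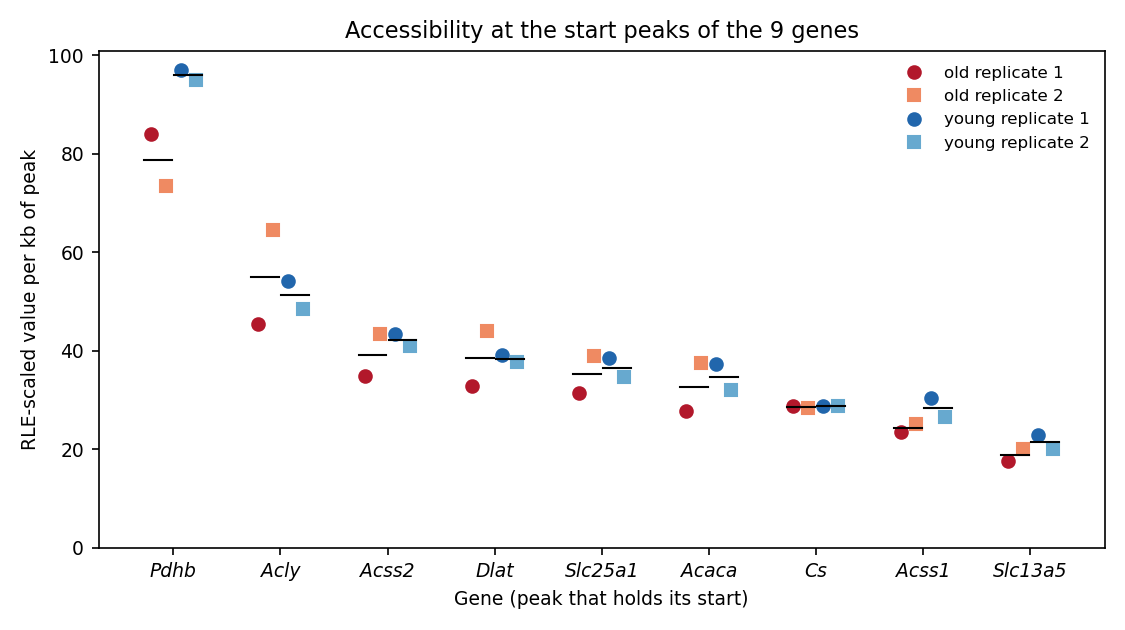
RLE-scaled value per kb of the peak that holds the start of each of the 9 genes (y axis, linear from 0), in old replicates 1 and 2 and young replicates 1 and 2 (points; horizontal lines are group means, n = 2 each). Pdhb lies highest, with its old points under its young points, and at every gene but Pdhb and Cs old replicate 1 is the lowest of the 4 points.

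At the gene of the citrate carrier, Slc25a1, the only peak ran from 17927101 to 17930000 on chromosome 16 and covered the start, part of the untranslated and coding exons and the sequence printed above. Its deposited values were 74.1 and 114 in old replicates 1 and 2 and 119 and 115 in young replicates 1 and 2, which rest on 212, 370, 336 and 339 counts. After RLE scaling these were 91.2, 113, 111 and 101. Old replicate 1 was thus the lowest sample and old replicate 2 the highest, and the groups overlapped. The log2 fold change (old minus young) was -0.06 with a 95% interval from -0.43 to 0.31 (limma, adjusted p = 0.900). Old and young MSCs did not differ there beyond the spread between samples, and the interval leaves room for a change of either sign. Among 11100 genes with a summed value at least as high as that of Slc25a1, the 4 samples of Luc7l2, Pomk and Utp15 followed its pattern most closely, with Euclidean distances of 0.0076, 0.014 and 0.020 between centred log2 sums. Such likeness over 4 samples is a description only.

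None of the genes that cleave citrate, activate acetate or import citrate passed the test. At the start peak of Acly (chromosome 11, 100523701 to 100529100), the enzyme that cleaves exported citrate, RLE-scaled values were 246 and 348 in old replicates 1 and 2 and 292 and 262 in young replicates 1 and 2. Both the lowest and the highest of these values came from old MSCs, and the log2 fold change was 0.08 (95% interval from -0.24 to 0.41, limma adjusted p = 0.841). With 5400 bp this peak was wider than 85.2% of promoter peaks, and it held 95.8% of the accessibility summed over the 3 peaks of the gene.
The start peak of Acss2 was wider still (6700 bp, chromosome 2, 155512301 to 155519000), but it also covered the start of the neighbouring gene Ggt7, which runs in the opposite direction, so its signal cannot be assigned to either gene alone. It had 233 and 291 RLE-scaled in old and 291 and 274 in young MSCs, with a log2 fold change of -0.11 (95% interval from -0.41 to 0.18, limma adjusted p = 0.737). Of its other peaks, the one from 155562501 to 155563500 covered an untranslated exon and overlapped the gene Gss. There the old samples (12.0 and 13.4 RLE-scaled) were above the young ones (9.62 and 4.75), with a log2 fold change of 0.81 (95% interval from 0.09 to 1.53, limma unadjusted p = 0.0290, adjusted p = 0.246). This peak rests on 16 to 44 counts per library, and the young samples differed from each other more than the old ones did. The log2 fold change was 0.36 without young replicate 2 and 1.25 without young replicate 1. The narrowest peak of all 32, 100 bp in an intron of Acss2, had 1, 10, 2 and 3 counts in old replicates 1 and 2 and young replicates 1 and 2, so that no fold is given.
Acss1, which encodes the mitochondrial acetyl-CoA synthetase, had a start peak (chromosome 2, 150667101 to 150669000) with 44.8 and 47.9 RLE-scaled in old and 57.7 and 50.5 in young MSCs. Both old values lay under both young values, but the log2 fold change of -0.22 did not pass (95% interval from -0.64 to 0.21, limma adjusted p = 0.639), and it was -0.13 without young replicate 1. The peak also overlaps the transcript E130215H24Rik. The second peak of Acss1, in an intron, had 29.1 per kb against 26.4 at the start, and there the old samples spanned the young ones (57.2 and 36.9 against 49.1 and 54.9 RLE-scaled).
At the start peak of Slc13a5 (chromosome 11, 72265301 to 72267600), which overlaps the transcript 1700051A21Rik as well, values were 40.4 and 46.4 RLE-scaled in old and 52.7 and 46.0 in young MSCs. Old replicate 2 and young replicate 2 were nearly level, and the log2 fold change was -0.18 (95% interval from -0.62 to 0.26, limma adjusted p = 0.714). Without old replicate 1 or young replicate 1 it was -0.089, and without young replicate 2 it was -0.28.

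Mitochondrial acetyl-CoA and citrate are made by the products of Pdhb, Dlat and Cs. Pdhb, which encodes a subunit of the E1 enzyme of pyruvate dehydrogenase, had a single peak over its start (chromosome 14, 8171501 to 8174800). Its RLE-scaled values were 277 in the first and 242 in the second old sample, and 320 and 313 in the young samples, with means of 260 ± 24.7 and 316 ± 4.72 (SD, n = 2 each). Both old values lay under both young values, by a log2 fold change of -0.29 (standard error 0.13, 95% interval from -0.57 to -0.0092). The unadjusted p was 0.0436, and the difference did not pass after adjustment over all peaks (limma, adjusted p = 0.289). Left with old replicate 2 as its only old sample, the same test did call it (log2 fold change -0.39, limma adjusted p = 0.00213), in a comparison that calls 6476 peaks lower and 3880 higher in old MSCs and assumes that a lone old sample varies like the young ones. With old replicate 1 as the only old sample the value was -0.18 and did not pass (limma adjusted p = 0.329).
Dlat encodes the E2 subunit of the same complex. Its start peak (chromosome 9, 50658301 to 50660900) had 85.6 and 114 RLE-scaled in old and 102 and 98.2 in young MSCs. The old samples lay on either side of the young ones, and the log2 fold change was -0.01 (95% interval from -0.40 to 0.37, limma adjusted p = 0.983).
Cs, which encodes citrate synthase, was the steadiest of the start peaks (chromosome 10, 128335501 to 128338800). Its RLE-scaled values were 94.7 and 93.6 in old and 95.2 and 95.3 in young MSCs. The log2 fold change was -0.02 (95% interval from -0.38 to 0.34, limma adjusted p = 0.975). On the values as deposited the same peak had 76.9 and 94.3 in old and 102 and 109 in young MSCs, so it was level only relative to the typical peak of each library. The Cs intron peak was lower in both old samples (49.5 and 52.5 against 56.4 and 59.7 RLE-scaled), with a log2 fold change of -0.18 (limma adjusted p = 0.692).

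Acaca, which encodes the carboxylase that commits acetyl-CoA to fatty acid synthesis, held 13 of the 32 peaks along 271980 bp. Its most accessible peak did not lie at the first annotated start but 50159 bp downstream of it (chromosome 11, 84178101 to 84181600), over the GC-rich inner start printed above. This peak had 63.3 RLE-scaled per kb over all samples, against 33.7 per kb at the first start, whose peak is shared with the oppositely directed gene Tada2a. It was higher than the peak at the first start in each of the 4 samples, and it made up 42.8% of the accessibility summed over the gene. Peak 7, from 84197401 to 84198700 within an intron, came next at 57.6 per kb and held no annotated start. The 6 peaks beyond 150 kb reached between 9.40 and 13.9 per kb.

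**Figure D2:**
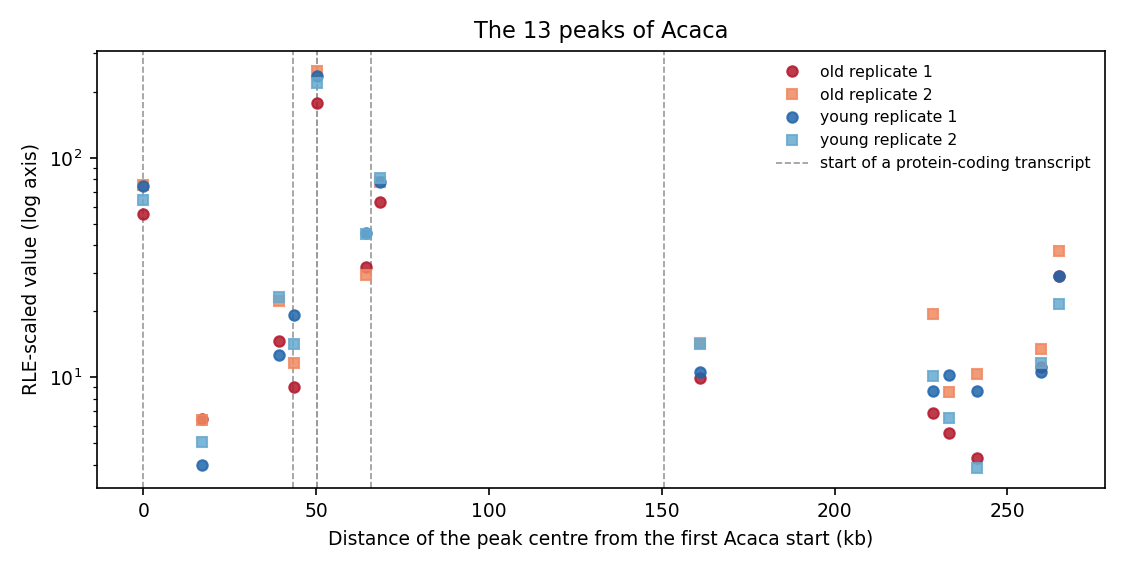
RLE-scaled value (y axis, log scale) of the 13 Acaca peaks in each of the 4 samples, against the distance of the peak centre from the first annotated start in kb (x axis). Dashed lines mark starts of protein-coding transcripts, and the highest points in every sample lie at the inner start, 50159 bp downstream.

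Old minus young differences of the Acaca peaks had both signs, and none passed. At the inner start, RLE-scaled values were 178 and 250 in old replicates 1 and 2 and 238 and 220 in young replicates 1 and 2, and the log2 fold change was -0.11 (95% interval from -0.45 to 0.22, limma adjusted p = 0.778). At the first start they were 55.5 and 75.0 in old and 74.6 and 64.1 in young MSCs (log2 fold change -0.10, limma adjusted p = 0.854). In both peaks old replicate 1 was the lowest and old replicate 2 the highest sample.
Groups that did not overlap were found at peaks 4, 6 and 7, lower in old MSCs, and at peak 2, higher. Over all peaks, 24.2% had both old values under both young values and 23.2% had both above, so such an order was common. Peak 6 (84192601 to 84195400, beside the GC-poor start printed above) had the lowest adjusted p of all 32 peaks. It had 31.8 and 29.3 RLE-scaled in old and 45.4 and 44.8 in young MSCs (means 30.6 ± 1.81 and 45.1 ± 0.447, SD, n = 2 each). The log2 fold change was -0.55 (standard error 0.22), with an unadjusted p of 0.0202 and an adjusted p of 0.211 (limma), so this difference did not pass. Peak 4 (84172901 to 84173600), over the start of a further coding transcript, had 9.04 and 11.6 RLE-scaled in old and 19.2 and 14.2 in young MSCs (log2 fold change -0.64, limma adjusted p = 0.285). It rests on 21 to 58 counts per library.
Peak 7 had 63.3 and 77.8 RLE-scaled in old and 78.0 and 80.7 in young MSCs, with a log2 fold change of -0.18. Toward the end of the gene, old replicate 2 was the highest sample at peaks 8, 9, 11, 12 and 13. At peak 9 it had 19.5 RLE-scaled, against 6.88 in old replicate 1 and 8.62 and 10.1 in the young samples, so that the log2 fold change of 0.30 rests on 1 of the 2 old samples. The fitted log2 fold changes of peaks 2, 3, 8, 10, 11, 12 and 13 lay between -0.22 and 0.44.

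The remaining peaks of the other genes had 2.15 to 21.7 RLE-scaled over the 4 samples, and none of them passed. Highest in both old samples were an intron peak of Acly, from 100520601 to 100521800, and the peak at the end of Cs, from 128362301 to 128363100, which overlaps Coq10a, a gene for a coenzyme Q binding protein. The Acly intron peak had 13.3 and 9.15 RLE-scaled in old and 6.63 and 7.72 in young MSCs (log2 fold change 0.56, limma adjusted p = 0.405). The Cs peak had 6.88 and 10.4 in old and 5.31 and 5.94 in young MSCs (log2 fold change 0.52). In the other 5, namely Acly peak 3, Acss2 peaks 3 and 5, Dlat peak 2 and Slc13a5 peak 2, the groups overlapped and the log2 fold changes lay between -0.28 and 0.16.

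Across all 9 genes, 0 of the 32 peaks passed an adjusted p of 0.01 (limma with RLE scaling), while 0.0563% of all peaks did, 36 lower and 30 higher in old MSCs (1333 and 52 on the values as deposited). At an unadjusted p under 0.05 there were 4 of the 32 (3 with limma-voom), against 16.4% of all peaks, so the 32 peaks held no more of these than the table at large. The 4 were the Acss2 peak over Gss and, lower in old MSCs, the Pdhb start and Acaca peaks 4 and 6, and 8.87% of all peaks were lower at this level. After RLE scaling, old values lay under both young values in both old samples at 7 of the 32 peaks, where 24.2% of all peaks had this order, and above them at 4, where 23.2% of all peaks did. The 32 log2 fold changes lay between -0.64 and 0.81 with a median of -0.03, beside a median of 0.0011 over all peaks. On the values as deposited the median was -0.30 beside -0.27 over all peaks, where 12 of the 32 had both old values under the young ones (43.5% of all peaks) and 1 had both above (7.56%). The lower deposited values of old MSCs at these genes were thus close in size to those of the whole table with both old samples together, but not in each of them. Against young replicates 1 and 2, old replicate 1 had medians of -0.59 and -0.64 at the 32 peaks (-0.37 and -0.48 over all peaks). Old replicate 2 had 0.011 and -0.0085 (-0.074 and -0.17 over all peaks).

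**Figure D3:**
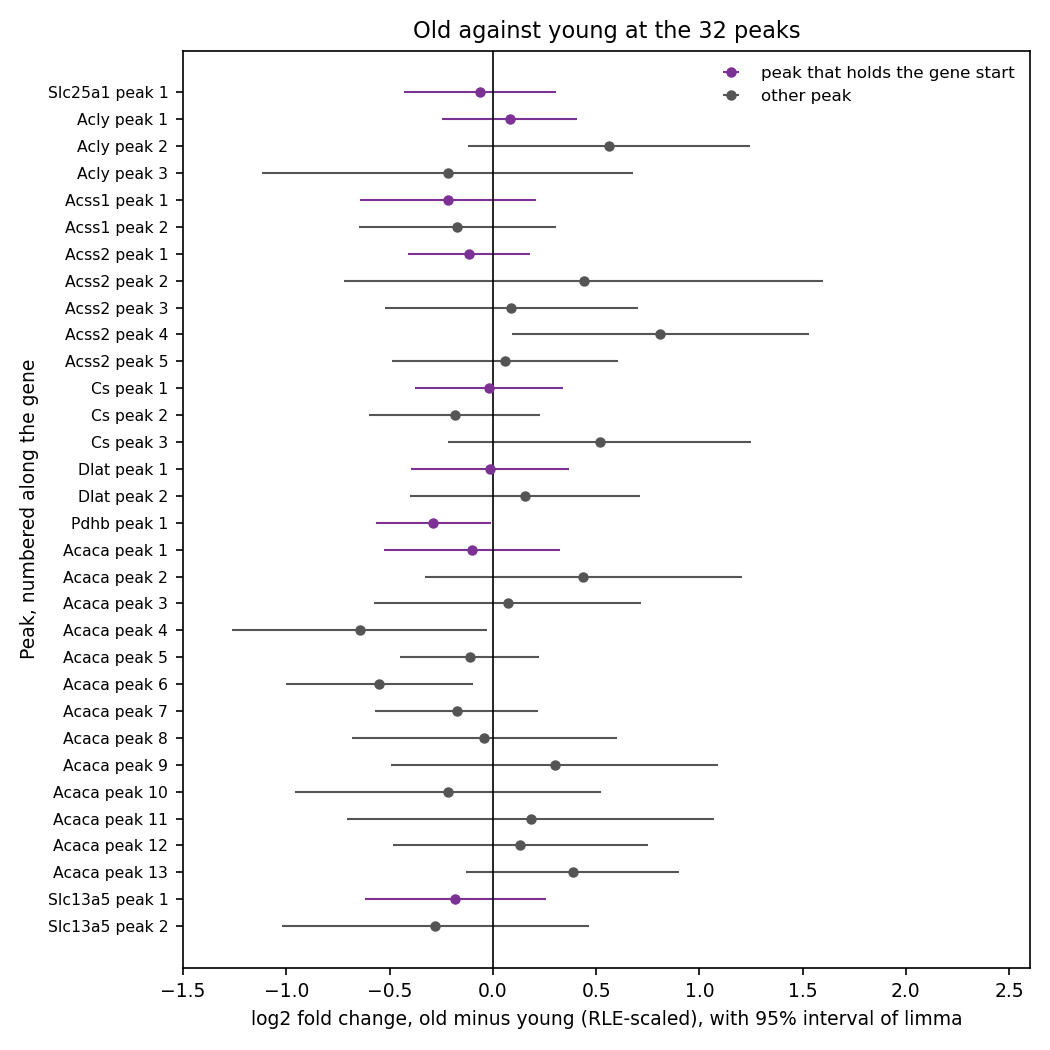
log2 fold change of old minus young MSCs after RLE scaling (x axis) for each of the 32 peaks, with the 95% interval of limma (n = 2 per group). Purple marks the 9 peaks that hold a gene start and grey the other 23, and the intervals of all but 4 peaks include 0.

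The old replicates differed from each other at these peaks. Old replicate 2 was above old replicate 1 at 24 of the 32 peaks after RLE scaling, with a median difference of 0.30 on the log2 scale. Over all peaks it was above in 49.0%, with a median difference of -0.0098, and over promoter peaks in 58.3%, with 0.076. Of the 32 peaks, 18 lie on chromosome 11, at Acly, Acaca and Slc13a5. Over all chromosome 11 peaks the median difference of old replicate 2 from the young samples was 0.18, against -0.091 to 0.088 over each other autosome. Old replicate 2 was above old replicate 1 at 59.9% of all chromosome 11 peaks, with a median difference of 0.12. The same held for 75.7% of the promoter peaks on chromosome 11, with 0.27, and for 14 of the 18 peaks. The replicate difference was 0.40 at the 18 peaks on chromosome 11 and 0.20 at the 14 others, so it was also present away from that chromosome. With every chromosome centred on its own median, the log2 fold change went from -0.11 to -0.25 at the inner Acaca start, from -0.11 to -0.25 for the Acaca sum and from -0.18 to -0.32 at the Slc13a5 start, and 0 of the 32 peaks passed (limma). Mitochondrial peaks made up 6.52% of the summed peak values of old replicate 2, against 13.5% to 15.7% in the other libraries, and the part of this share in these differences was not tested. Young replicates differed at the 32 peaks by a median of -0.024. These counts are a description without a test, and with 1 library for each old culture, culture and library preparation cannot be told apart.

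**Figure D4:**
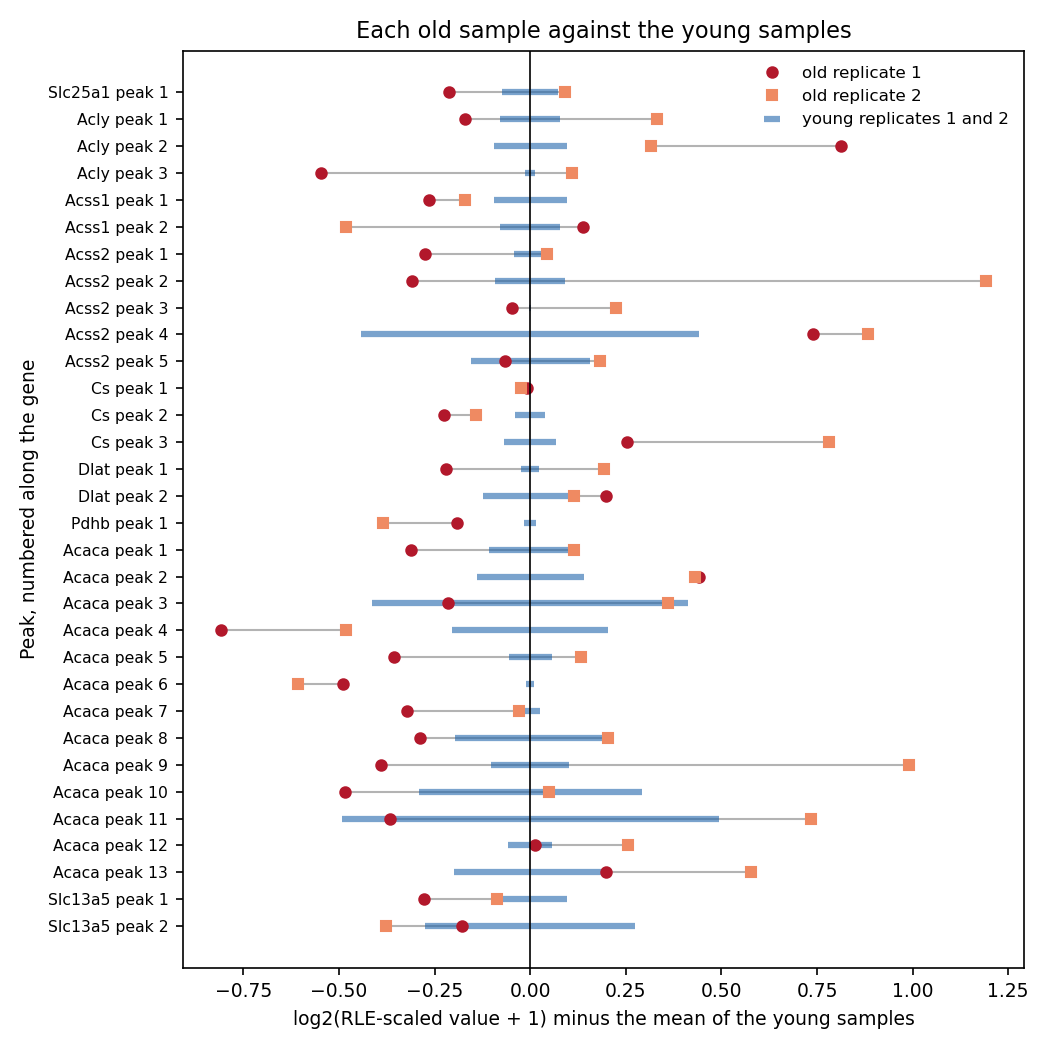
Difference of old replicate 1 (red circles) and old replicate 2 (orange squares) from the mean of the young samples on the log2(RLE-scaled value + 1) scale (x axis), for each of the 32 peaks, with the blue bar from one young replicate to the other. The orange square lies right of the red circle at 24 peaks, and at many peaks the young samples fall between them.

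Accessibility was also summed over the peaks of each gene and tested against 17308 protein-coding genes with a peak. None of the 9 genes passed (limma with RLE scaling, lowest adjusted p = 0.592 at Pdhb), and 0 had an unadjusted p under 0.05, also with limma-voom, where 0.0116% and 8.33% of all genes did. On the values as deposited Pdhb had a log2 fold change of -0.58 with an unadjusted p of 0.0175 and an adjusted p of 0.304 (limma), beside a median of -0.30 over all genes. The log2 fold changes of the sums ran from -0.29 at Pdhb to 0.10 at Acly with a median of -0.06. Old values lay under both young values in both old samples at Acss1, Cs, Pdhb and Slc13a5 and above them at 0 of the 9, beside 25.2% and 16.4% of all genes. On the values as deposited 7 of the 9 lay under (52.6% of all genes) and 0 above (1.94%).

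Of 38 other genes of the pathway, 0 passed (limma) and 1 had an unadjusted p under 0.05. This was Acot12, an acetyl-CoA hydrolase, with sums of 109 and 90.6 RLE-scaled in old and 150 and 154 in young MSCs and a log2 fold change of -0.61 (limma adjusted p = 0.378). Over the 38 genes, both old values lay under both young values at 13 and above them at 3, beside 25.2% and 16.4% of all genes. Under both young values were 3 of 9 genes of citrate and malate handling, 0 of 10 of fatty acid and sterol synthesis and 3 of 8 of acetyl-CoA and acetate use. Genes that bring pyruvate to acetyl-CoA had the lowest median, -0.18 over 11 genes, and at 7 of them both old values lay under both young values. They included Pdha1 (151 and 166 against 188 and 184 RLE-scaled), Pdhx and Dld, further subunits of the pyruvate dehydrogenase complex, with the kinase genes Pdk3 and Pdk4, whose products switch that complex off, and the phosphatase genes Pdp1 and Pdp2, whose products switch it on again. Pdk4 had 183 and 141 in old and 200.4 and 194 in young MSCs, with a log2 fold change of -0.29 (limma adjusted p = 0.633). At the rest of this list, Mpc1, Mpc2, Pdk1 and Pdk2, the groups overlapped. Their log2 fold changes were 0.07, -0.10, -0.01 and 0.21, so the kinase genes did not all go the same way. Genes of citrate and malate handling had a median of 0.06 over 9 genes, and Mdh1, the cytosolic malate dehydrogenase, was the lowest of them at -0.24 (limma adjusted p = 0.608). Genes of fatty acid and sterol synthesis had a median of -0.01 over 10 genes. There Mlxipl, a regulator of lipogenic genes, had the largest positive value of all 38, at 0.38, with 60.7 and 91.2 in old and 59.7 and 54.0 in young MSCs (limma adjusted p = 0.642). The remaining 8 genes of acetyl-CoA and acetate use had a median of -0.08.

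**Figure D5:**
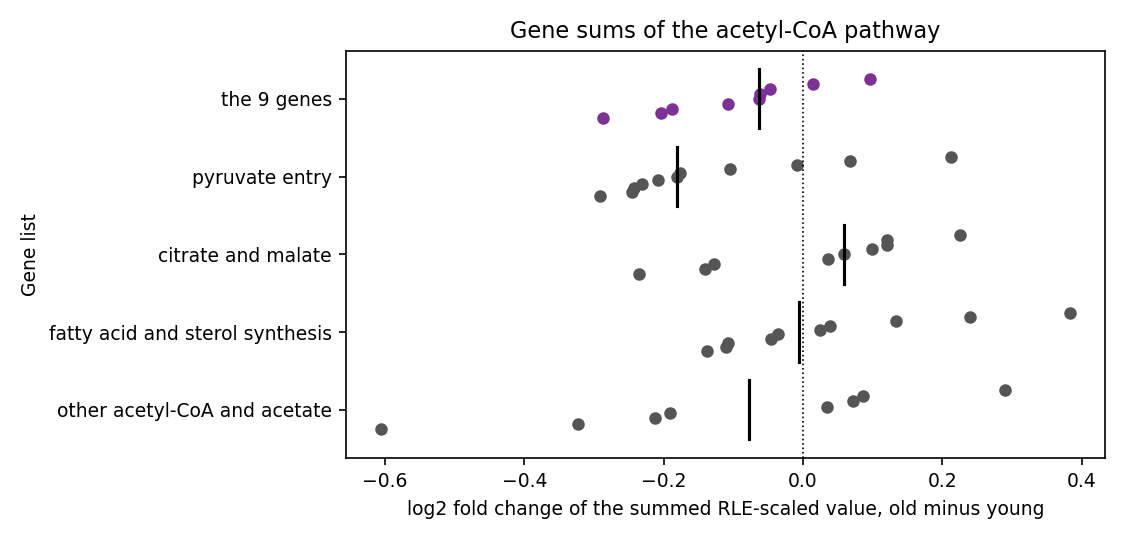
log2 fold change of the summed RLE-scaled value, old minus young (x axis), for each of the 9 genes (purple) and of 38 other genes of the pathway (grey) in 4 lists, with the median of each list as a black bar. The pyruvate list has the lowest median, -0.18, and the citrate and malate list the highest, 0.06.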

How the data were processed

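ATAC-seq values of 4 samples (2 old, 2 young) were analysed. The authors deposited 1 value per peak and sample, named RPKM, which is treated as a score because it is scaled to the library but not to the length of the peak. The submitters' processing notes name Bowtie2, Picard and mm10. The paper's methods, written for other samples, describe mapping with Bowtie2 and peaks and peak values from chromstaR, whose bins overlap, so that 1 read may enter several counts. Values were divided by RLE factors, and log2(value + 1) was tested with limma 3.58.1 in R 4.3.3 (trended, robust moderation, two-sided), with Benjamini-Hochberg adjustment over all 117282 peaks or 17308 gene sums and a threshold of 0.01. edgeR was not used, since the scores are no raw counts. A pseudocount of 1 understates changes of weak peaks. Steps of the scores gave the counts (tolerance 1e-06), and no interval for counting error is given. All peaks ended within GRCm38 chromosomes. The limma step was tested on simulated data with the same spread in all samples. That test cannot tell the error rates in these data, where the old replicates stand further apart. Summaries used Python 3.11.15, numpy 2.4.6 and pandas 2.3.3, figures matplotlib 3.10.9. Every peak of the 9 genes is accounted for, and in the pathway lists the largest rise and fall were to be named, while the remaining pathway genes were chosen after their values were seen. The genes and lists were chosen with earlier results of these data known. Nothing says that the cultures came from separate animals, so p-values measure only the spread between samples. The smallest p of an exact permutation test on 2 against 2 samples is 0.33. Deviations from the group mean correlated at -0.0993 between samples of equal number, so the numbers were not taken as pairs.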

Additional observations from a re-analysis of the deposited data

How the results depend on the processing

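The test was repeated with 4 other scalings, pseudocounts of 0.1 and 5, plain moderation and a threshold of 0.05. Further runs used windows of 1 kb and 10 kb upstream (37 peaks at 10 kb) and a filter on low values. The filter left 25 of the 32 peaks and 8 of the 9 genes, without Slc13a5. The test was also repeated with limma-voom on recovered counts, with the replicate block and leaving out each sample. With all 4 samples, 0 of the peaks and 0 of the genes tested were called under each of these settings. The lowest adjusted p values of limma lay between 0.0768 and 0.298 for peaks, and unadjusted p under 0.05 was reached by 2 to 4 peaks. The replicate block called 0 of the 32 peaks and 0 of the 9 genes, while over all peaks it called 907 lower and 362 higher (36 and 30 without it) and over all genes 28 and 30 (0 and 2 without it). Over all peaks there were 1333 lower and 52 higher on the values as deposited, 82 and 41 centred per chromosome, 53 and 42 with quantile normalization, 7 and 15 with equal total signal, 11 and 13 or 54 and 38 with a pseudocount of 0.1 or 5, 7 and 8 with the filter, 95 and 49 with limma-voom, 904 and 412 at 0.05, and 0 with plain moderation (18137 at an unadjusted p under 0.05). With a sample left out, calls at 0.01 came only without old replicate 1, at the Pdhb start peak and at the sums of Pdhb and Acly. The log2 fold changes there were -0.39, -0.39 and 0.33. Pdhb has a single peak, so its peak and its sum are the same value. That fit assumes that a lone old sample varies like the young ones. Its calls were common over all peaks and genes as well, so they are not particular to the 9 genes. The median over the 32 peaks was -0.30 on the values as deposited and between -0.21 and 0.12 with a sample left out, the ends being without old replicates 2 and 1.

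Fold changes of start peaks near 0 changed sign. On the values as deposited Acly was at -0.21, and centred per chromosome at -0.059. With equal total signal Slc25a1 was at 0.0073, Cs at 0.052 and Dlat at 0.056; with quantile normalization Cs was at 0.013 and Dlat at 0.020; with limma-voom Dlat was at 0.0071. With a sample left out, the log2 fold change ranged from -0.20 to 0.088 at Slc25a1, from -0.16 to 0.33 at Acly, from -0.26 to 0.042 at the Acss2 start, from -0.027 to 0.00095 at Cs, from -0.21 to 0.19 at Dlat, from -0.30 to 0.11 at the first Acaca start and from -0.35 to 0.13 at its inner start. It kept its sign between -0.32 and -0.13 at Acss1, between -0.28 and -0.089 at Slc13a5, between -0.39 and -0.18 at Pdhb, between 0.36 and 1.25 at Acss2 peak 4, between -0.85 and -0.44 at Acaca peak 4 and between -0.61 and -0.48 at Acaca peak 6. The cause was not tested. Depth limits the weak peaks, of which 1 had under 3 counts in some library.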
